A study of Mus musculus with 6 samples.

Results

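The 4 myogenic regulatory factors (MRFs) *Myod1*, *Myf5*, *Myf6* and *Myog* and the 3 E protein genes *Tcf3*, *Tcf4* and *Tcf12* were examined in *Phf2* KO and control C2C12 cells 2 d post differentiation. The 7 genes were taken by symbol from the 55401 genes of the deposited count matrix, and all 7 were among the 17310 genes that passed the filter on low counts. C2C12 is a mouse myoblast line that fuses into multinucleated myotubes when serum is lowered, and PHF2 is a histone demethylase of the KDM7 family. The study asked what role *Phf2* has in C2C12 myotubes, and the RNA sequencing compared 3 control libraries with 3 *Phf2* KO libraries.

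The labels call the control cells wild type, while the paper describes mock cells. These received a control plasmid with Cas9, ZsGreen and a guide that matches no sequence of the mouse genome. The *Phf2* KO cells received 4 pooled Cas9 plasmids with guides against *Phf2*. Cells that expressed the plasmid's ZsGreen were sorted, expanded and frozen without single-cell cloning, so the KO group was 1 sorted pool and not a clone. Both groups were then differentiated in DMEM with 2% horse serum, and the replicates were wells of 1 experiment. The p-values therefore measure the spread between these libraries, which may be technical, and a difference between the cell pools cannot be told apart from an effect of *Phf2*. *Phf2* itself had 102, 95.5 and 105 CPM (counts-per-million, normalized between libraries by TMM) in control replicates 1, 2 and 3 and 41.1, 37.6 and 38.6 CPM in KO replicates 1, 2 and 3, which left 38.8% of the control RNA level. This value is for RNA and not protein, and the paper reports a larger fall of PHF2 protein in the KO myoblasts. Library totals ran from 56821143 to 58507833 estimated counts in the control group and from 52526109 to 67502788 in the KO group.

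MRFs are basic helix-loop-helix (bHLH) transcription factors that drive cells into the muscle lineage. They bind DNA mainly as heterodimers with E proteins, bHLH factors that are made in most tissues, and the dimer recognises the E box, whose letters are CANNTG. *Myod1* and *Myf5* are known for setting muscle identity in myoblasts, *Myog* for the step from myoblast to myotube, and *Myf6* for late differentiation and mature fibres. ID proteins lack the basic region, pair with E proteins and keep them from DNA. MEF2 factors bind beside MRFs at many muscle promoters.

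The 250 bases upstream of the RefSeq start (GRCm38.p6) are shown for *Myog* and *Myf5*, the 2 MRFs among the 4 members with a promoter entry. They were printed because *Myog* was the only member to pass the threshold of the test below. The same window is shown for the acetylcholine receptor genes *Chrna1* and *Chrng*, the only 2 genes of a list of MRF targets whose window held the E box CAGCTG at 2 places. Each sequence runs 5′ to 3′ on the strand of the gene, and capitals mark E boxes, the MEF2 core CTANNNNTA on either strand and the MEF3 element TCAGGTTTC, which SIX-family factors bind. The windows lie on chr1:134289754-134290003 (plus strand, *Myog*), chr10:107486135-107486384 (minus strand, *Myf5*), chr2:73580339-73580588 (minus strand, *Chrna1*) and chr1:87205561-87205810 (plus strand, *Chrng*).
Myog: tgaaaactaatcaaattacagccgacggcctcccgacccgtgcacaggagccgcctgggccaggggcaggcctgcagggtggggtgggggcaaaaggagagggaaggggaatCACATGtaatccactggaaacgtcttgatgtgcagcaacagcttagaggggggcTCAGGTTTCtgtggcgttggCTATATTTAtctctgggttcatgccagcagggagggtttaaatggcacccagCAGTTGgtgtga
Myf5: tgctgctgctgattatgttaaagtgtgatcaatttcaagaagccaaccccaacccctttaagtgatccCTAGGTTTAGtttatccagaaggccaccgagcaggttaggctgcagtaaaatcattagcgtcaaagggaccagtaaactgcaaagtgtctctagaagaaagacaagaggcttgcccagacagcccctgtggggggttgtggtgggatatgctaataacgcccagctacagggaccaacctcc
Chrna1: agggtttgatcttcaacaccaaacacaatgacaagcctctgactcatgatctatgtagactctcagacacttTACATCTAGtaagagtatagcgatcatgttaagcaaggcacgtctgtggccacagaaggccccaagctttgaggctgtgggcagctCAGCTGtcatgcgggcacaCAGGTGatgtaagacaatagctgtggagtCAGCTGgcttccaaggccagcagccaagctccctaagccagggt
Chrng: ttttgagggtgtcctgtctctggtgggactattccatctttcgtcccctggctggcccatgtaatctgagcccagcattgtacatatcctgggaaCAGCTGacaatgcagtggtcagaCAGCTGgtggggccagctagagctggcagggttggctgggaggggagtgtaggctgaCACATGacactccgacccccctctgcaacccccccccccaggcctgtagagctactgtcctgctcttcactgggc

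The *Myog* window held the E box CACATG at -138 to -133 and the E box CAGTTG at -12 to -7, counted back from the RefSeq start. Between them lay the MEF3 element at -84 to -76 and the MEF2 core CTATATTTA at -64 to -56. GENCODE M21 starts *Myog* at chr1:134289989, inside this window, so that CAGTTG lies after that start. The *Myf5* window held no E box, and its capitals are the overlapping MEF2 core matches CTAGGTTTA and TAGGTTTAG at -182 to -173. In the *Chrna1* window CAGCTG stood at -92 to -87 and at -44 to -39, with CAGGTG between them at -73 to -68. In the *Chrng* window CAGCTG stood at -155 to -150 and at -132 to -127. A match of letters is a description and not a bound site. An E box of any kind was found in 66.2% of 32536 mouse promoter windows, the MEF2 core in 18.9% and the MEF3 element in 0.378%.

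All 7 genes were placed on GRCm38 with the GENCODE M21 annotation. *Myog* (ENSMUSG00000026459) lies on chr1:134289989-134292548, plus strand. *Myod1* (ENSMUSG00000009471) lies on chr7:46376474-46379099, plus strand. *Myf5* (ENSMUSG00000000435) on chr10:107482908-107486134 and *Myf6* (ENSMUSG00000035923) on chr10:107492853-107494737 are neighbours on the minus strand, 6718 bases apart. Each of these 4 genes has 1 annotated transcript of 3 exons. *Tcf3* (ENSMUSG00000020167) spans chr10:80409514-80433647 on the minus strand with 14 transcripts. *Tcf12* (ENSMUSG00000032228) spans chr9:71842688-72111871 on the minus strand with 21 transcripts, and *Tcf4* (ENSMUSG00000053477) spans chr18:69343356-69689079 on the plus strand with 62. No exon of the 7 genes overlapped an exon of another gene.

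Compared per length, in TPM (transcripts-per-million), *Myog* was by far the most abundant member. Its mean level was 679 ± 51.7 TPM in control cells and 543 ± 36.8 TPM in *Phf2* KO cells (SD, n = 3 libraries per group, as for all means here). *Myod1* followed at 101 ± 6.95 TPM in control cells, 6.75 times below *Myog*. The level of *Tcf3* in control cells, 95.5 ± 3.61 TPM, overlapped that of *Myod1*, and the order of this pair turned in KO cells, where *Tcf3* was at 105 ± 4.89 and *Myod1* at 89.7 ± 0.161 TPM without overlap. *Tcf12* came next at 68.9 ± 4.16 TPM in control and 76.8 ± 5.71 TPM in KO cells. *Tcf4* was at 58.3 ± 5.92 and 43.4 ± 5.44 TPM, and *Myf5* at 36.4 ± 2.99 and 40.6 ± 2.10 TPM. The levels of *Tcf4* and *Myf5* overlapped in KO cells and not in control cells. *Myf6* was barely expressed, at 0.566 ± 0.149 TPM in control and 0.243 ± 0.166 TPM in KO cells, 64.4 times below *Myf5* in control cells.

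**Figure D1:**
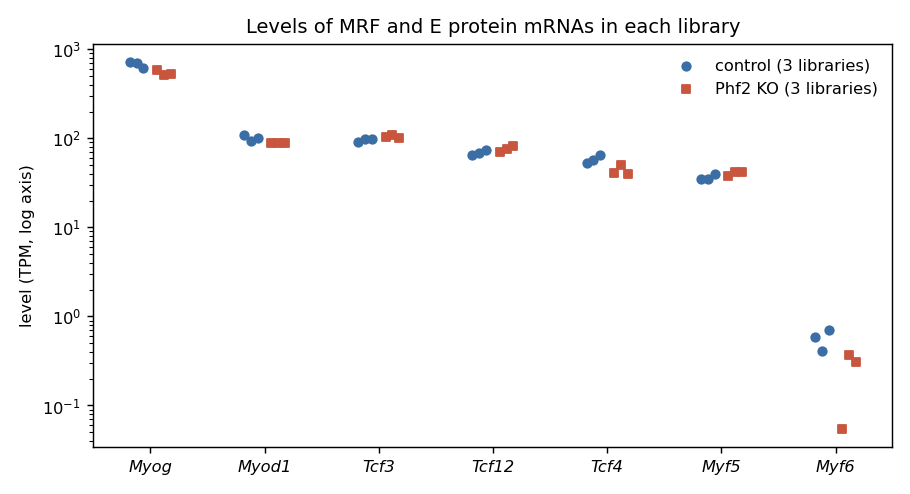
Level of each member in each of the 6 libraries in TPM on a log axis, with 3 control libraries as circles and 3 *Phf2* KO libraries as squares, and members in the order of their control mean. *Myog* stands at 512 to 716 TPM and *Myf6* below 1 TPM, with the other 5 members between 34.7 TPM (*Myf5*) and 110.5 TPM (*Tcf3*).

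Of the 7 members, *Myog* alone passed the threshold between the groups, with a lower level in *Phf2* KO cells. Over all genes tested, 6.48% passed, 3.26% with lower and 3.22% with higher values in KO cells. By exactTest of edgeR, which the study's methods name, *Myog* was again the 1 member called, beside 6.52% of all genes, and the same held with the replicate number as a block, beside 7.6% of all genes (3.86% lower and 3.74% higher). In 4 of the 7 members the 2 groups did not overlap, namely *Myod1*, *Myf6* and *Myog* with lower and *Tcf3* with higher values in KO cells, while 25.1% of all genes tested had groups that did not overlap. The median log2 fold change was -0.26 over the 4 MRFs and 0.09 over the 3 E proteins, beside -0.00096 over all genes tested. The MRF median includes the estimate of *Myf6*, whose counts were too few to place its difference, and depends on it.

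**Figure D2:**
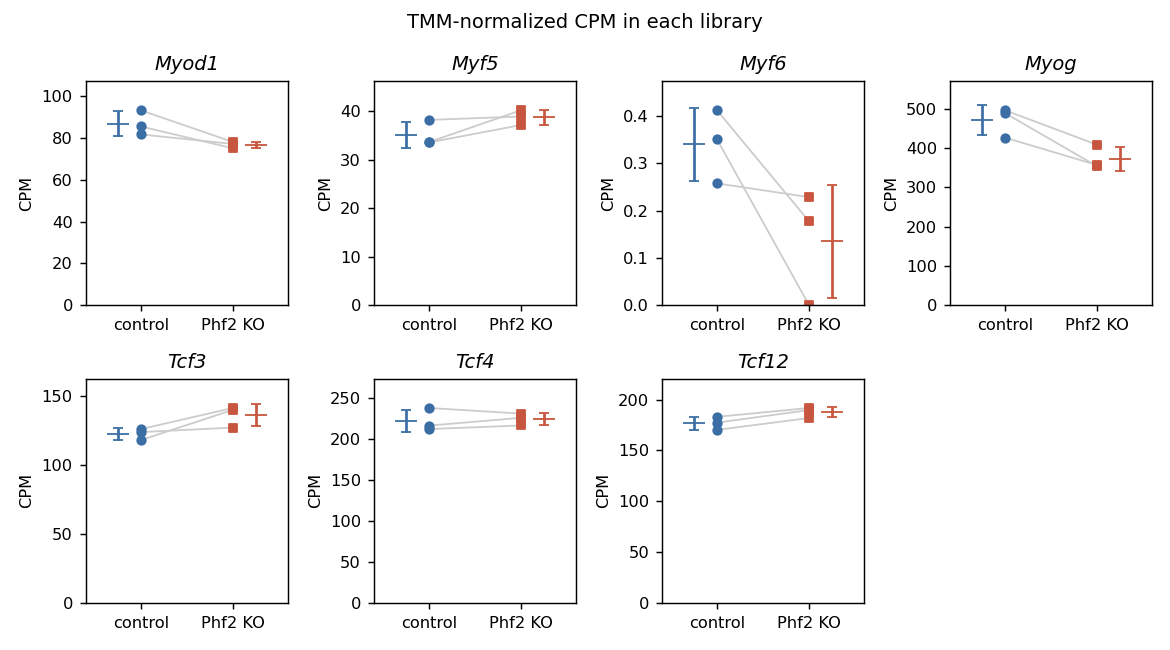
TMM-normalized CPM of each member in each library, with control libraries as circles, *Phf2* KO libraries as squares, a grey line between libraries of the same replicate number, mean ± SD of 3 libraries beside the points and an axis from 0 in each panel. The KO points of *Myog* lie between 354 and 408 CPM, all below the control points at 427 to 496 CPM.

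*Myog*, the factor of the step into the myotube, fell to 79.2% of the control level. It had 496, 489 and 427 CPM in control replicates 1, 2 and 3 and 408, 354 and 357 CPM in *Phf2* KO replicates 1, 2 and 3. Every KO library was below every control library, and the highest KO value was close to the lowest control value. The means were 470.7 ± 38.3 and 373 ± 30.8 CPM. The log2 fold change was -0.34 with an SE of 0.071 (95% interval -0.50 to -0.18), and edgeR's quasi-likelihood test gave an adjusted p of 0.0221 (Benjamini-Hochberg, over all 17310 genes). Between libraries of the same replicate number, the log2 difference was -0.28, -0.47 and -0.26. In these bulk libraries, fewer *Myog*-positive cells and less *Myog* RNA per cell cannot be told apart. The call depended on single libraries: the adjusted p was 0.0796 without control replicate 1, 0.0909 without control replicate 2, 0.0768 without KO replicate 2 and 0.129 without KO replicate 3, and the log2 fold change stayed between -0.41 and -0.30. On the TPM scale the log2 fold change was -0.32, and the adjusted p by limma was 0.0982 with a pseudocount of 1 and 0.0918 with a pseudocount of 0.1.

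*Myod1*, which opens chromatin at muscle genes in myoblasts, had 93.3, 81.7 and 85.5 CPM in control replicates 1, 2 and 3. In *Phf2* KO replicates 1, 2 and 3 it had 78.1, 77.1 and 75.1 CPM. The KO values lay close together and just under the lowest control value, so that the groups did not overlap. Its log2 fold change was -0.18 (SE 0.054, 95% interval -0.29 to -0.06), and the edgeR quasi-likelihood test gave an adjusted p of 0.0679, above the threshold. It came to 0.048 with a filter at 1 CPM and to 0.0481 with the estimated counts divided by 4, and the log2 fold change was -0.18 there too.

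*Myf5*, the other factor of muscle identity, had 33.6, 33.7 and 38.3 CPM in the control group and 37.2, 40.2 and 39.0 CPM in the KO group. Control replicate 3 lay inside the KO range. Its log2 fold change of 0.14 (SE 0.069, 95% interval -0.0066 to 0.29) had the opposite sign to that of *Myod1*, with an adjusted p of 0.282 in the edgeR fit.

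*Myf6*, the MRF of late differentiation, had 20, 15 and 24 estimated counts in the control libraries and 0, 12 and 12 in the KO libraries. In CPM these were 0.351, 0.258 and 0.412 against 0, 0.228 and 0.177, where 3 counts in KO replicate 1 would be 0.0485 CPM. The groups did not overlap, but the counts were too few to place the difference: the 95% interval of its log2 fold change ran from -3.23 to 0.57, and the adjusted p in the edgeR fit was 0.462. No single fold change is given for *Myf6*, since its counts were few and the log2 estimate moved with the method. It ran from -2.30 to -0.34 over the 9 alternatives with 6 libraries that gave it a value.

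*Tcf3*, which encodes the E proteins E12 and E47, had 118, 126 and 124 CPM in control replicates 1, 2 and 3. In KO replicates 1, 2 and 3 it had 140.1, 141 and 127 CPM. All KO values were above all control values, with KO replicate 3 only just above control replicate 2. The log2 fold change was 0.15 (SE 0.050, 95% interval 0.043 to 0.26), and the adjusted p in the edgeR fit was 0.0989, so that *Tcf3* did not pass.

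*Tcf12*, which encodes the E protein HEB, had 170.2, 177 and 183 CPM in the control group and 182, 189.8 and 192 CPM in the KO group. KO replicate 1 lay just below control replicate 3. Its log2 fold change was 0.09 (SE 0.045, 95% interval -0.011 to 0.18) with an adjusted p of 0.326. The log2 difference within the replicate numbers was 0.10, 0.10 and 0.07, and for *Tcf3* it was 0.25, 0.17 and 0.04. For both genes the KO library was thus the higher of each pair.

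*Tcf4*, which encodes the E protein E2-2 and is unrelated to the WNT effector once given the same name, had 212, 216 and 238 CPM in the control group. Its KO libraries had 216, 226 and 231 CPM, inside the control range. The log2 fold change of 0.02 (SE 0.050, 95% interval -0.093 to 0.12) came with an adjusted p of 0.921 in the edgeR fit, and its sign turned without control replicate 1 (-0.020), control replicate 2 (-0.0039) or KO replicate 3 (-0.0056).

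**Figure D3:**
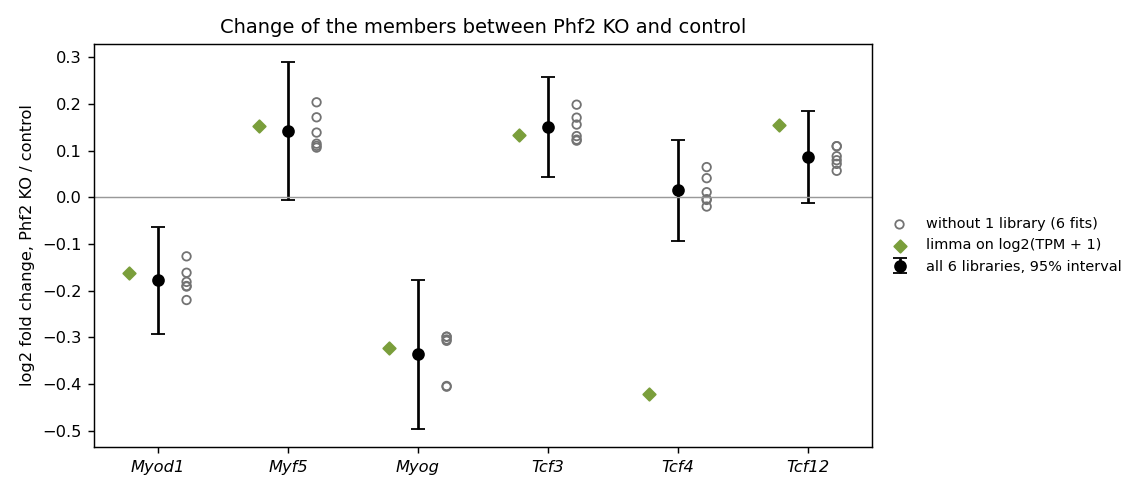
Log2 fold change of 6 members between *Phf2* KO and control, with the edgeR estimate and its 95% interval as a black point, the 6 fits that each leave out 1 library as open circles, and limma on log2(TPM + 1) as a diamond (*Myf6* is left out for its low counts). The diamond of *Tcf4* at -0.42 lies far below its count estimate at 0.02.

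The 2 scales of the deposited data differed for *Tcf4*. Its TPM values were 53.3, 56.8 and 64.8 in the control group and 40.3, 49.7 and 40.2 in the KO group, so that every KO library was below every control library. Limma on log2(TPM + 1) gave a log2 fold change of -0.42 with an adjusted p of 0.136, against 0.02 on the count scale. Counts follow the total of reads over the gene, while TPM divides each transcript by its length, and *Tcf4* has 62 annotated transcripts of 332 to 8577 bases. The ratio of CPM to TPM was 3.98, 3.801 and 3.66 in the control libraries and 5.36, 4.54 and 5.74 in the KO libraries, a log2 difference of 0.45 without overlap. Of 13835 genes compared, 5.67% had ratios that did not overlap between the groups and 3.3% had a difference as large as that of *Tcf4*. The ratio of each of the other 5 members examined overlapped between the groups, with a log2 difference of -0.07 for *Tcf12* and 0.02 for *Tcf3*. Loci assembled over the *Tcf4* span are listed apart from the reference genes. The highest of them in each library had 66.3, 69.8 and 78.7 TPM in the control group. In the KO group it had 63.1, 67.4 and 65.1 TPM. These values overlapped between the groups. The source of the difference between the 2 scales was not tested, and this comparison was chosen after the values had been seen.

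**Figure D4:**
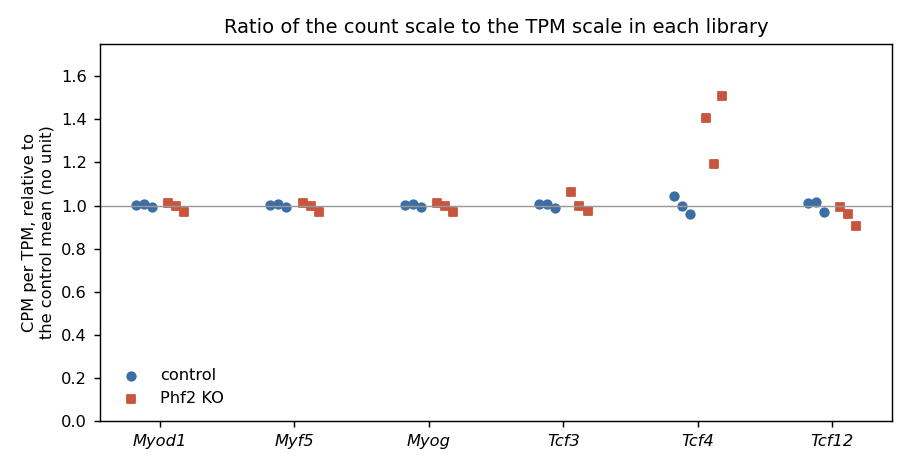
Ratio of CPM to TPM in each library for 6 members, divided by the mean ratio of the 3 control libraries, with control libraries as circles and *Phf2* KO libraries as squares. The KO squares of *Tcf4*, with ratios of 4.54 to 5.74 before the division, stand above its control circles at 3.66 to 3.98, and the circles and squares of the other members overlap.

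The balance between the RNAs of MRFs, E proteins and ID proteins was described by sums of TPM, without a test. No share over all genes stands beside these sums and ratios. The 4 MRFs summed to 859, 831 and 760 TPM in the control libraries and to 711, 644 and 664 TPM in the KO libraries, without overlap. *Myog* made up most of that sum, 81.5% to 84.4% in control and 79.5% to 82.0% in KO cells. The share of *Myf5* was 4.05%, 4.17% and 5.25% in the control libraries and 5.36%, 6.50% and 6.28% in the KO libraries. The 3 E proteins summed to 210, 222 and 236 TPM in control and 214, 237 and 224 TPM in KO cells, which overlapped. That sum holds the TPM of *Tcf4*, whose lower KO values were not seen in its counts. *Tcf3* and *Tcf12* alone summed to 157, 165 and 171 TPM in control and 174, 187 and 184 TPM in KO cells, without overlap. MRF per unit of *Tcf3* and *Tcf12* was 5.48, 5.03 and 4.44 in the control libraries and 4.10, 3.44 and 3.604 in the KO libraries, lower in every KO library, while MRF per unit of all 3 E proteins overlapped between the groups (3.22 to 4.09 and 2.72 to 3.32). *Id1*, *Id2* and *Id3*, the ID genes detected here, summed to 240, 208 and 264 TPM in control and 336, 321 and 318 TPM in KO cells, so that every KO library was above every control library. Most of this ID sum was *Id3*, with a mean of 167 TPM in control and 238 TPM in KO cells. Per unit of MRF, the ID sum was 0.279, 0.250 and 0.347 in the control libraries and 0.473, 0.499 and 0.478 in the KO libraries. Per unit of E protein it was 1.14, 0.934 and 1.12 in the control libraries and 1.57, 1.36 and 1.42 in the KO libraries. Without *Tcf4* it was 1.53, 1.26 and 1.54 in the control libraries and 1.94, 1.71 and 1.72 in the KO libraries. With and without *Tcf4*, the ratio was higher in every KO library than in every control library.

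Of 20 genes for ID proteins and other inhibitors or repressors of the bHLH network, 15 were tested and 1, *Id2*, passed the threshold, beside 6.48% of all genes tested, so that the share of the list was near that of all genes. The level of *Id2* was 14.7, 17.8 and 16.6 CPM in the control group and 20.2, 19.9 and 22.02 CPM in the KO group. It rose by 0.34 on the log2 scale (SE 0.092) with an adjusted p of 0.0419 in the edgeR fit, which went above the threshold when any of the 6 libraries was left out (0.0601 to 0.167). *Id3* had the highest level of the ID genes, with 98.3, 82.2 and 109.8 CPM in control and 148, 136 and 127 CPM in KO cells. Its log2 fold change of 0.50 (SE 0.11) had an adjusted p of 0.0661, above the threshold. *Id3* did pass by exactTest (5.5e-05), DESeq2 (2.5e-07) and limma-voom (0.0396), and in the edgeR quasi-likelihood fit without control replicate 2 (0.0163) or without control replicate 3 (0.00215). *Id1* had 20.4, 15.8 and 18.9 CPM against 22.3, 22.7 and 22.6 CPM, a log2 fold change of 0.29 with an adjusted p of 0.0883. All KO values of *Id1*, *Id2* and *Id3* were above all control values, as in 12.9% of all genes tested, and *Id4* had 0 counts in the 6 libraries. Of the 15 genes tested, 6 had higher and 9 lower estimates in KO cells. The study describes no pairing, though libraries of the same replicate number deviated from their group means in similar ways. With the number as a block in the edgeR fit 4 passed, beside 7.6% of all genes. *Id2* had a higher level (adjusted p 0.0392). *Hes6* (0.0393), *Heyl* (0.0448) and *Scx* (0.0113) had lower levels and are named because they make up this count. The median of the list was -0.15, against -0.00096 over all genes tested.

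Of the 27 genes whose products act with MYOD or modify its activity, 14 had higher and 13 lower estimates in KO cells, and the median of the list was 0.02 on the log2 scale. The test called 6, of which 5 fell and 1 rose, beside 3.26% of all genes called lower and 3.22% called higher. With the replicate number as a block 8 passed, since *Six4* (adjusted p 0.0363, lower) and *Jmjd1c* (0.0485, higher) were added, named because they make up the difference. *Mef2c*, a MEF2 factor that MYOD and MYOG switch on, had the largest change of these 6, from 35.0, 43.1 and 32.4 CPM in control to 11.9, 11.6 and 14.97 CPM in KO cells. Its log2 fold change was -1.52 (SE 0.13, adjusted p 7.0e-05 in the edgeR fit). *Mef2d* fell by 0.28 and *Mef2a* by 0.21 on the log2 scale, so that 3 MEF2 genes were among the 6. The fourth MEF2 gene, *Mef2b*, was barely expressed and had the opposite sign, with 0.140, 0 and 0.0515 CPM in control and 0.244, 0.3998 and 0.384 CPM in KO cells, without overlap. Its adjusted p was 0.151 in the edgeR quasi-likelihood fit and 0.0352 by exactTest. *Ccnd3*, the cyclin of differentiating muscle, fell by 0.35, and *Zbtb18*, a repressor that acts on *Id* genes, fell by 0.23. *Hdac1*, a histone deacetylase that binds MYOD, rose by 0.18. *Mef2c*, *Mef2d* and *Ccnd3* passed whichever library was left out. *Mef2a* did not pass without control replicate 2 (adjusted p 0.110) or KO replicate 2 (0.0956), *Zbtb18* did not pass without control replicate 2 (0.107), KO replicate 1 (0.0672) or KO replicate 2 (0.077), and *Hdac1* passed only without KO replicate 1 (0.0276, otherwise 0.0505 to 0.122). Limma on log2(TPM + 1) called none of the 6, with an adjusted p of 0.219 for *Mef2c*.

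A list of 31 known MRF target genes had lower estimates in KO cells throughout. Of these 31 genes 24 fell past the threshold and 0 rose, beside 3.26% of all genes called lower. In 30 all KO values were below all control values, with *Actc1* as the exception, beside 12.2% of all genes. Their median was -0.48 against -0.00096 over all genes tested, and the 24 called genes ran from -1.39 to -0.36. The list was chosen with results of these data known, so its count is a description of these genes. The 5 called genes with the largest change were *Cav3* (-1.39), a caveolin of the muscle membrane, *Mb* (-0.97), the oxygen-binding protein myoglobin, *Pgam2* (-0.95), the muscle form of a glycolytic enzyme, *Ckm* (-0.78), muscle creatine kinase, and *Myl4* (-0.76), an embryonic myosin light chain. Their adjusted p values in the edgeR fit were 0.000181, 3.5e-06, 0.000179, 8.7e-05 and 0.00249. *Mb* had 71.1, 68.5 and 59.9 CPM in control and 34.3, 34.1 and 33.6 CPM in KO cells, so that every KO library was far below every control library. These 5 passed under every alternative tried, the left-out libraries included.

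**Figure D5:**
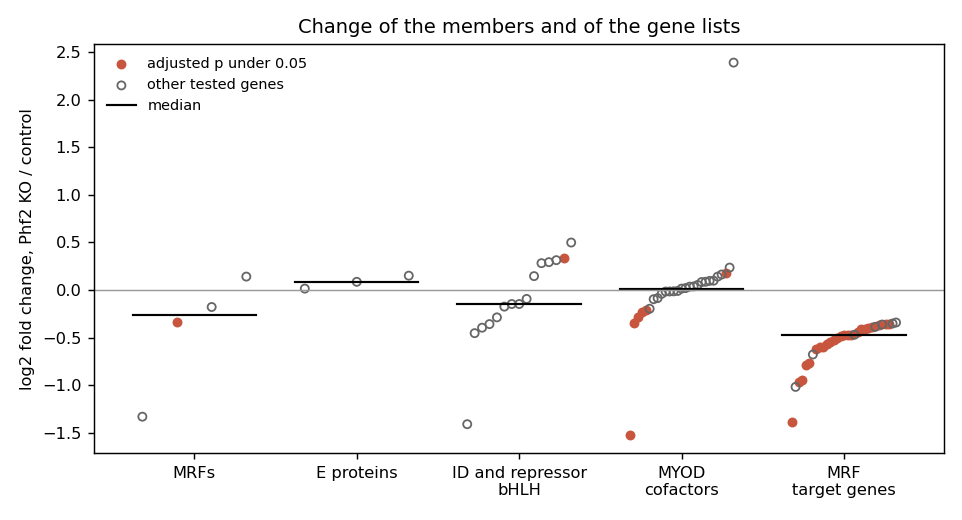
Log2 fold change of the tested MRFs, E proteins and members of the 3 gene lists between *Phf2* KO and control, with genes of adjusted p under 0.05 as filled points, other tested genes as open circles and the median of each group as a black line. The medians are -0.26 for MRFs, 0.09 for E proteins, -0.15 for ID and repressor bHLH genes, 0.02 for MYOD cofactors and -0.48 for MRF target genes. The MRF median includes *Myf6*, which had few counts.

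The target promoters printed above were read beside these values. *Chrna1*, with CAGCTG at 2 places, fell from 498 ± 11.1 to 380.1 ± 15.02 CPM, a log2 fold change of -0.39 (SE 0.042). *Chrng*, also with CAGCTG at 2 places, fell from 226 ± 8.16 to 152 ± 7.63 CPM, a log2 fold change of -0.57 (SE 0.049). Of the 31 target genes, 23 had a promoter entry, with 27 windows in all. CAGCTG was found in 13 of these 23 genes (56.5%), against 14.8% of 26734 genes with an entry. CACCTG, another E box, was found in 6 of the 23 (26.1%), against 19.5% of all genes, on either strand. Both belong to the E boxes counted above, of which at least 1 was found in 20 of the 23 genes (87.0%), against 69.3% of all genes. The others, *Actc1*, *Myl4* and *Smyd1*, held no E box in the window and also had lower estimates in KO cells (-0.34, -0.76 and -0.36). Whether the sites bear on the change in KO cells was not tested. The target genes are known muscle genes, and the shares describe their windows and not the KO comparison.

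The label of differentiated muscle cells was checked against marker genes. All 8 markers of differentiated skeletal muscle were tested. They summed to 9053 to 10670 CPM in the control libraries and 7145 to 7726 CPM in the KO libraries. The test called 5 of the 8 lower in KO cells, beside 3.26% of all genes tested. Most of the 8, and the progenitor marker *Cdh15*, are also on the list of MRF targets, so that these genes are counted in both places. *Cdh15* was called lower among 6 progenitor markers, which summed to 289.5 to 307 CPM and 249 to 265 CPM, with 3 of 6 under 1 CPM. The sum of 6 cycling markers overlapped between the groups, at 191 to 212 and 185 to 206 CPM. The 6 adipocyte markers summed to 29.7 to 37.8 CPM in control and 48.5 to 54.6 CPM in KO cells, with *Cebpa* called higher, *Plin1* and *Lep* at 0 and 5 of 6 under 1 CPM. The 6 osteoblast markers summed to 52.3 to 58.9 and 65.1 to 71.2 CPM, with *Runx2* called higher, *Ibsp* at 0 and 5 of 6 under 1 CPM. The 6 Schwann cell markers summed to 54.1 to 63.8 and 34.0 to 39.2 CPM, with *Erbb3* called lower, *Sox10* at 0 and 4 of 6 under 1 CPM. The 6 fibroblast markers summed to 484 to 611 and 589.8 to 661 CPM, which overlapped, with *Dpt* called lower and *Tcf21* and *Col15a1* at 0. Endothelial and leukocyte markers summed to at most 0.790 and 2.36 CPM. Whether a difference in cell types contributes to the differences of *Myog* and its targets was not tested.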

How the data were processed

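RNA sequencing of 3 control and 3 *Phf2* KO libraries was analysed, grouped by the labels. Poly(A) RNA was made into strand-specific libraries. The authors used HISAT2 for alignment to mm10 and StringTie for counting. Versions and annotation are not given in the sources used here. The values in the deposited matrix are estimated counts, written as integers and unscaled. They follow coverage times length divided by about 75 bases (74.98 to 75.03 for *Myod1*, *Myf5* and *Myog*) and are not tallies of reads, so counting error cannot be read from them. For each library a deposited table gives TPM, which is signal per transcript length as scaled by the authors, and coverage, a mean read depth used only for that check. Rows of reference genes were used. There were 0 columns of other samples. Of the matrix IDs, 54349 matched GENCODE M21 with version.

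After filterByExpr with a minimum count of 10 and TMM scaling, the robust quasi-likelihood test of edgeR 4.0.16 was run in R 4.3.3, without a covariate, with Benjamini-Hochberg adjustment over 17310 genes and a threshold of 0.05. This is the source of every adjusted p unless another test is named. SE is the log2 coefficient divided by the square root of F, and the prior count was 0.125. The common biological coefficient of variation was 0.135. Alternatives used exactTest, DESeq2 1.42.0, limma 3.58.1 (voom on counts, and log2(TPM + 1) or log2(TPM + 0.1)), other scalings and filters, counts divided by 4, a replicate block, and each library left out. The scripts were tested on simulated data. Figures were drawn with Python 3.11.15.

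The members and gene lists were chosen with earlier results of these data known. Named genes were the members, *Phf2*, up to 5 called genes of each list with the largest change, *Id1* to *Id4*, *Mef2c* and the 3 genes most correlated with each member. *Hdac1*, *Hes6*, *Heyl*, *Scx*, *Six4*, *Jmjd1c*, *Mef2b* and *Actc1* were named after their values were seen, and *Chrna1*, *Chrng* and *Smyd1* for their promoters. Libraries of the same replicate number resembled each other. Over 10924 genes, deviations from the group mean correlated at 0.29, 0.374 and 0.205 between libraries of the same number and at most 0.0377 between others. Such deviations cancel out within a group, so these correlations are not independent and cannot establish a pairing. The study describes no pairing, so the block was an alternative. Promoters are RefSeq windows, and transcript-level tables were not analysed here.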

Additional observations from a re-analysis of the deposited data

How the results depend on the processing

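The limma fits to TPM, with a pseudocount of 1 and of 0.1, moved 6 of the 12 tested results: 158 and 178 genes passed in place of 1122, 0 and 0 members in place of 1, 0 and 0 ID and repressor genes in place of 1, and 0 and 0 MYOD cofactors in place of 6. In these fits *Myog* had a log2 fold change of -0.32 and -0.32 (adjusted p 0.0982 and 0.0918), and *Tcf4* turned to -0.42 and -0.43 (adjusted p 0.136 and 0.13). With a filter at 1 CPM and with counts divided by 4, 2 and 2 members passed, beside 1264 and 1286 genes in all. There *Myod1* at -0.18 and -0.18 reached an adjusted p of 0.048 and 0.0481 in the edgeR fit. The ID and repressor genes past the threshold were 2 by exactTest, 3 by DESeq2, 2 by limma-voom and 4 with the replicate block. In these settings 1129, 1441, 1045 and 1316 genes passed in all. The block gave 8 MYOD cofactors, left the calls of members as they were (*Myog* 0.000856, *Myod1* 0.0506) and gave 1316 genes. Over the 11 alternatives with 6 libraries, *Myog* passed in 9 (adjusted p 7.7e-06 to 0.0982), *Myod1* in 2 (0.048 to 0.271), and *Myf5*, *Tcf3*, *Tcf4* and *Tcf12* in 0. *Myf6* passed in 0 of the 9 that gave it a value. It was absent after the filter at 1 CPM and the division by 4. MRF targets past the threshold numbered 16 in the TPM fits and 22 to 28 otherwise.

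Leaving out each library in turn gave 468 to 1039 genes (468 without control replicate 2, 577 without KO replicate 2 and 613 without KO replicate 3), 0 to 1 members, 0 to 2 ID and repressor genes, 3 to 5 MYOD cofactors (3 without control replicate 2 or KO replicate 2) and 18 to 28 MRF targets. The log2 fold change ran from -0.41 to -0.30 for *Myog*, -0.22 to -0.13 for *Myod1*, 0.11 to 0.20 for *Myf5*, 0.12 to 0.20 for *Tcf3*, 0.06 to 0.11 for *Tcf12* and -0.020 to 0.065 for *Tcf4*, whose sign turned without control replicate 1, control replicate 2 or KO replicate 3. Such fits have fewer libraries, and the cause of the other moves was not tested. With 3 wells of 1 experiment per group, the estimates of *Myod1*, *Tcf3* and *Tcf12*, of 0.18 or less on the log2 scale, did not pass, and *Myf6* lay at the limit of depth.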

Other observations

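The genes whose levels followed each member most closely over the 6 libraries were listed by Pearson correlation of log2(CPM + 1) among 10923 other genes whose mean reached 5 CPM. All points share their library and depth, there are only 6 of them, and the highest of many correlations is high by construction, so these values are a description. *Myog* was followed by *Cacng1* (0.9993), a subunit of the muscle calcium channel, *Rps18-ps3* (0.9984), a pseudogene that can share reads with its parent gene, and *Tnni2* (0.9983), fast troponin I. *Cacng1* and *Tnni2* are also on the list of MRF targets and were called lower in *Phf2* KO cells, with log2 fold changes of -0.41 and -0.47 and adjusted p of 0.0237 and 0.0372 by edgeR's quasi-likelihood test. Without control replicate 1, control replicate 2, KO replicate 2 or KO replicate 3, neither passed (0.0656 to 0.143). *Myod1* was followed by *Hirip3* (0.988), *Psmd3* (0.980), a proteasome subunit, and *Ero1lb* (0.980), none of which passed the test. *Myf5* was followed by *Grik5* (0.989), *Epb41l2* (0.988) and *Osbpl1a* (0.988). *Tcf3* was followed by *Rsbn1* (0.995), *Zfp703* (0.993) and *Terf2ip* (0.989), a telomere protein. *Tcf12* was followed by *Fam20c* (0.999), a kinase of secreted proteins, *Rnf146* (0.996) and *Ndfip1* (0.992). *Tcf4* was followed by *Slc39a11* (0.998), *Tmem218* (0.980) and *Dip2b* (0.979). For *Myf6*, with at most 24 counts in a library, the closest genes were *Dtx4* (0.999), *Pdcd6ip* (0.995) and *Gpatch4* (0.991).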
